A study of Mus musculus with 6 samples.

Results

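Ribosomal protein genes encode the protein subunits of the cytoplasmic ribosome. They were taken here as the protein-coding mouse genes whose symbol starts with Rpl (large subunit) or Rps (small subunit) followed by a digit or a p. S6 kinase genes (Rps6k) and pseudogenes were left out. The rule took 88 of 21900 protein-coding genes, 54 with large-subunit symbols and 34 with small-subunit symbols, spread over 19 chromosomes. It took 7 paralogs of narrower or divergent use (Rpl3l, Rpl10l, Rpl22l1, Rpl39l, Rps27l, Rpl7l1 and Rpl36al), and Rps19bp1, which is not a subunit. Without these 8 genes, 80 remained. Rpsa, Rack1 and Fau also encode ribosomal proteins but their symbols fall outside the rule, so they are described as a separate list.

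RUNX1 is a DNA-binding transcription factor, and its sites were mapped by ChIP-seq, in which DNA held by an antibody is sequenced and read-dense intervals are called as peaks. The cells were granulosa cells, the somatic cells around the oocyte, from 21-day-old CBA x C57BL/6 F1 mice. All groups share priming with 5 IU of eCG, a gonadotropin that drives follicle growth. The 0 h group (pre-ovulatory, 0 h after hCG) and the 6 h group (peri-ovulatory, 6 h after 5 IU of hCG given 46 h after eCG, standing in for the ovulatory hormone surge) held 2 RUNX1 libraries each, with 1 pooled input per time point. The injection text in the labels reads the same for every sample and names collection at 6 h only, so the 0 h assignment comes from the titles and time-point labels. No label says whether replicates came from separate animals, so p-values measure the spread between libraries, which may be technical. Peak lists hold no expression values, so neither the granulosa identity of the cells nor the output of these genes could be checked.

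A ribosome needs most of its proteins in equal numbers, and ribosomal protein genes are expressed in every growing cell. Most ribosomal protein genes are short, have a CpG-rich promoter without a TATA box, and start transcription within a run of pyrimidines. Their mRNAs then begin with the terminal oligopyrimidine (TOP) tract through which mTOR signalling controls their translation. ETS factors such as GABPA, and YY1, are known to bind promoters of this family. RUNX proteins bind DNA as a heterodimer with CBFB at sites close to TGTGGT or TGCGGT, and RUNX1 is among the genes that the ovulatory signal induces in granulosa cells.

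Promoter sequence was held for 68 of the 88 genes (RefSeq, GRCm38.p6, 250 bases before to 50 bases after a start). The 250 bases before the start of 6 genes are printed to show what DNA lay under the peaks. In 8 of 58 genes with an entry at the gene's own end, the 6 h summits of both replicates fell inside these 250 bases. Rpl37, Rpl13a, Rpl27a and Rps25 are the 4 of them whose peaks ranked highest, and Rps21 is the lowest. Rps27 had no peak in any library. Capitals mark the letters searched for: RUNX (TGTGGT or TGCGGT), ETS (CCGGAA) and YY1 (AAGATGGC), each on either strand.

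Rpl37, chr15:5116363-5116612, plus strand: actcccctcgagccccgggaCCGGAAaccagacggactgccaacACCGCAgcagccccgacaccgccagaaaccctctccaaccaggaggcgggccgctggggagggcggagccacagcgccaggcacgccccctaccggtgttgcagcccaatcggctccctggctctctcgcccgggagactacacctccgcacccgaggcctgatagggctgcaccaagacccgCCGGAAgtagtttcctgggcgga

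Rpl13a, chr7:45128746-45128995, minus strand: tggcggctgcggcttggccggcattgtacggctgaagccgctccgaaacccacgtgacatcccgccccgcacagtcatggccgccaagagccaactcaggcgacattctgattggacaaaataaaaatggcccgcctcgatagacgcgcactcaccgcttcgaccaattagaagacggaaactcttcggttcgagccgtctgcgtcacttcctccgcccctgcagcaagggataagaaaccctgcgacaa

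Rpl27a, chr7:109518945-109519194, plus strand: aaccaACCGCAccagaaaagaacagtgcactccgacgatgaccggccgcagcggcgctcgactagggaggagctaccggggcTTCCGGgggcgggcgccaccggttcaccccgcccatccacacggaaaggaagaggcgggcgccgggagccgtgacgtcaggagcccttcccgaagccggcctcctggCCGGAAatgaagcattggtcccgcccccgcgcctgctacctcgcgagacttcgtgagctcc

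Rps25, chr9:44407464-44407713, plus strand: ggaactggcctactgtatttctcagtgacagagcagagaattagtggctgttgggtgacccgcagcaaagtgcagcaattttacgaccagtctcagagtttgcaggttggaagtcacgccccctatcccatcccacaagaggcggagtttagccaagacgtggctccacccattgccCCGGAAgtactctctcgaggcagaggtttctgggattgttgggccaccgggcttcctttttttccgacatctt

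Rps21, chr2:180257129-180257378, plus strand: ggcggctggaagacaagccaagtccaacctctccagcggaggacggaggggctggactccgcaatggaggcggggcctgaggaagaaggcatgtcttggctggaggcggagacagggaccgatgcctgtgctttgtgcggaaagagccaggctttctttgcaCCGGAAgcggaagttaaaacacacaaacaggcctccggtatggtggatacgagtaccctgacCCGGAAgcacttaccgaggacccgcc

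Rps27, chr3:90213649-90213898, minus strand: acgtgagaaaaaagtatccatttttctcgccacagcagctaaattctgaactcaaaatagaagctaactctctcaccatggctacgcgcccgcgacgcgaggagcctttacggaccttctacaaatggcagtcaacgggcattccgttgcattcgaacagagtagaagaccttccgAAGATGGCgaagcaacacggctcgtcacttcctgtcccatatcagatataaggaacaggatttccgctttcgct

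Positions are counted from the annotated start, with bases before it negative. In Rpl37 the 6 h summits lay at -136 and -218, and the letters ACCGCA, the reverse complement of TGCGGT, began at -206. In Rpl27a the summits lay at -183 and -171 and the RUNX letters began at -245. The Rpl13a stretch, with summits at -245 and -244 at 6 h, holds none of the 3 motifs. Rps25, with summits at -197 and -130, holds ETS letters from -73 only. Rps21 holds ETS letters at -88 and -26, with summits at -36 and -156. The Rps27 stretch holds YY1 letters at -74 and no peak lay near it. Thus 2 of the 5 printed stretches with a peak held RUNX letters. The 300-base entries, which run past the start, also hold RUNX letters for Rps25, YY1 letters for Rpl13a and ETS letters for Rps27. A match of letters is a description of the sequence and not a bound site.

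A gene was counted as bound in a library when the summit of at least 1 peak lay within 1 kb of either of its ends. At 0 h, 1 ribosomal protein gene (1.14%) was bound in replicate 1 and 13 (14.8%) in replicate 2. At 6 h, 72 (81.8%) were bound in replicate 1 and 71 (80.7%) in replicate 2. Over all protein-coding genes the bound shares in the same 4 libraries were 1.58%, 8.04%, 38.1% and 45.4%. Both 6 h libraries thus had far more bound members than either 0 h library, and the groups did not overlap.

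The mean share was 7.95% ± 9.64 (SD, n = 2) at 0 h and 81.2% ± 0.804 (SD, n = 2) at 6 h. The difference of 73.3 percentage points had p = 0.3333 in an exact two-sided permutation test over libraries, which is the smallest p that 2 libraries against 2 can give. The lists differ in length, with 948 and 3135 peaks at 0 h and 18761 and 28671 at 6 h, so the rise has to be read against other genes of the same library. Members were bound 0.721 and 1.84 times as often as the other protein-coding genes at 0 h. At 6 h the ratios were 2.16 and 1.78. On the log2 scale these ratios averaged 0.21 ± 0.96 (SD, n = 2) at 0 h and 0.97 ± 0.19 (SD, n = 2) at 6 h. Their difference of 0.77 was smaller than the spread between the 0 h replicates (exact two-sided permutation p = 0.667). Relative to other genes, a change between the time points was therefore not resolved, with 0 h replicate 2 at a ratio like those at 6 h and 0 h replicate 1, which rests on a single gene, below them. Without 0 h replicate 1 the log2 difference was 0.09.

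**Figure D1:**
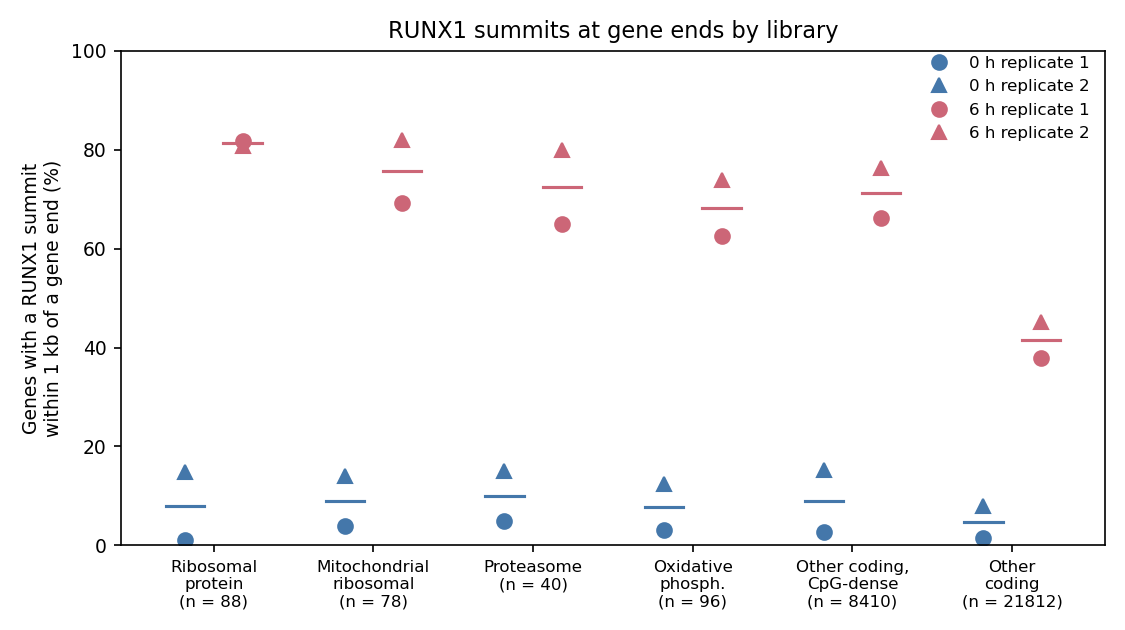
Percentage of genes with a RUNX1 summit within 1 kb of a gene end (vertical axis) in each of the 4 libraries (symbols, with the mean of each time point as a line), for ribosomal protein genes and the comparison sets. Ribosomal protein genes stand at 81.8% and 80.7% at 6 h, above other protein-coding genes at 37.9% and 45.2%, and at 1.14% and 14.8% at 0 h.

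At 6 h the bound share exceeded that of the other genes by 43.9 and 35.5 percentage points, a mean of 39.7 ± 5.95 (SD, n = 2). At 0 h the differences were -0.441 and 6.76 points, a mean of 3.16 ± 5.09 (SD, n = 2), so they differed in sign between replicates. Promoter type moved with this excess. Among the other genes with a CpG-dense promoter (8410 genes with a CpG observed over expected ratio of at least 0.6), 2.78% and 15.3% were bound at 0 h and 66.1% and 76.2% in the 6 h libraries. Of the 56 ribosomal protein genes with such a promoter, 1.79% and 19.6% were bound at 0 h and 82.1% and 80.4% in the 6 h libraries. Against the CpG-dense genes the excess of all members fell to a mean of 10.1 points at 6 h (15.7 in replicate 1 and 4.46 in replicate 2) and to -1.06 at 0 h. The 6 h mean thus rests mostly on replicate 1. At 6 h the excess was thus smaller against CpG-dense genes, and at 0 h its sign differed between replicates when CpG-dense members were set against them. The part of promoter type in the result was not tested further.

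Other housekeeping gene families gave a further reference. Mitochondrial ribosomal protein genes (78) were bound at 69.2% and 82.1% in the 6 h replicates, proteasome subunit genes (40) at 65% and 80%, and nuclear oxidative phosphorylation genes (96) at 62.5% and 74.0%. All 3 families lay below the cytoplasmic ribosomal protein genes in replicate 1. In replicate 2 the mitochondrial ribosomal protein genes lay slightly above them. At 0 h the 3 families were bound at 3.1% to 5% in replicate 1 and at 12.5% to 15% in replicate 2, so the cytoplasmic ribosomal protein genes, at 1.14% and 14.8%, were the lowest in replicate 1 and within their range in replicate 2.

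The time point could not be separated from the strength of each experiment. When every list was cut to its 948 strongest peaks by -log10 p, as many as the shortest list holds, only Rpl13a in 0 h replicate 1 was bound, and no member in the other 3 lists. All protein-coding genes were then bound at 1.58%, 2.06%, 2.1% and 1.37%. With peaks of -log10 q of at least 20 in every list, no member was bound in either 0 h library, 48 (54.5%) were in 6 h replicate 1 and 65 (73.9%) in 6 h replicate 2, against 0.548%, 2.37%, 28.6% and 37.2% of all protein-coding genes. The genome-wide background from which each list was called, recovered from the deposited values, stood at 2.77 and 2.65 reads in the 0 h lists. In the 6 h lists it stood at 2.76 and 2.13 reads. This floor comes from the peak calls, and how it was derived is not given in the sources used here. It is not a measured depth, which is unknown.

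The 6 h replicates called largely matching members. Of the 88 genes, 68 (77.3%) were bound in both 6 h libraries, against 37.3% of all protein-coding genes. Another 7 were bound in 1 of them (8.95% of all protein-coding genes), and 13 (14.8%) in neither (53.8%). Of the 68, 56 (63.6% of members) had no peak at 0 h, against 29.3% of all protein-coding genes, and 12 had one. No member was bound at 0 h alone, against 0.0639% of all protein-coding genes. Bound in both 6 h libraries were 41 of 54 large-subunit genes (75.9%) and 27 of 34 small-subunit genes (79.4%).

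**Figure D2:**
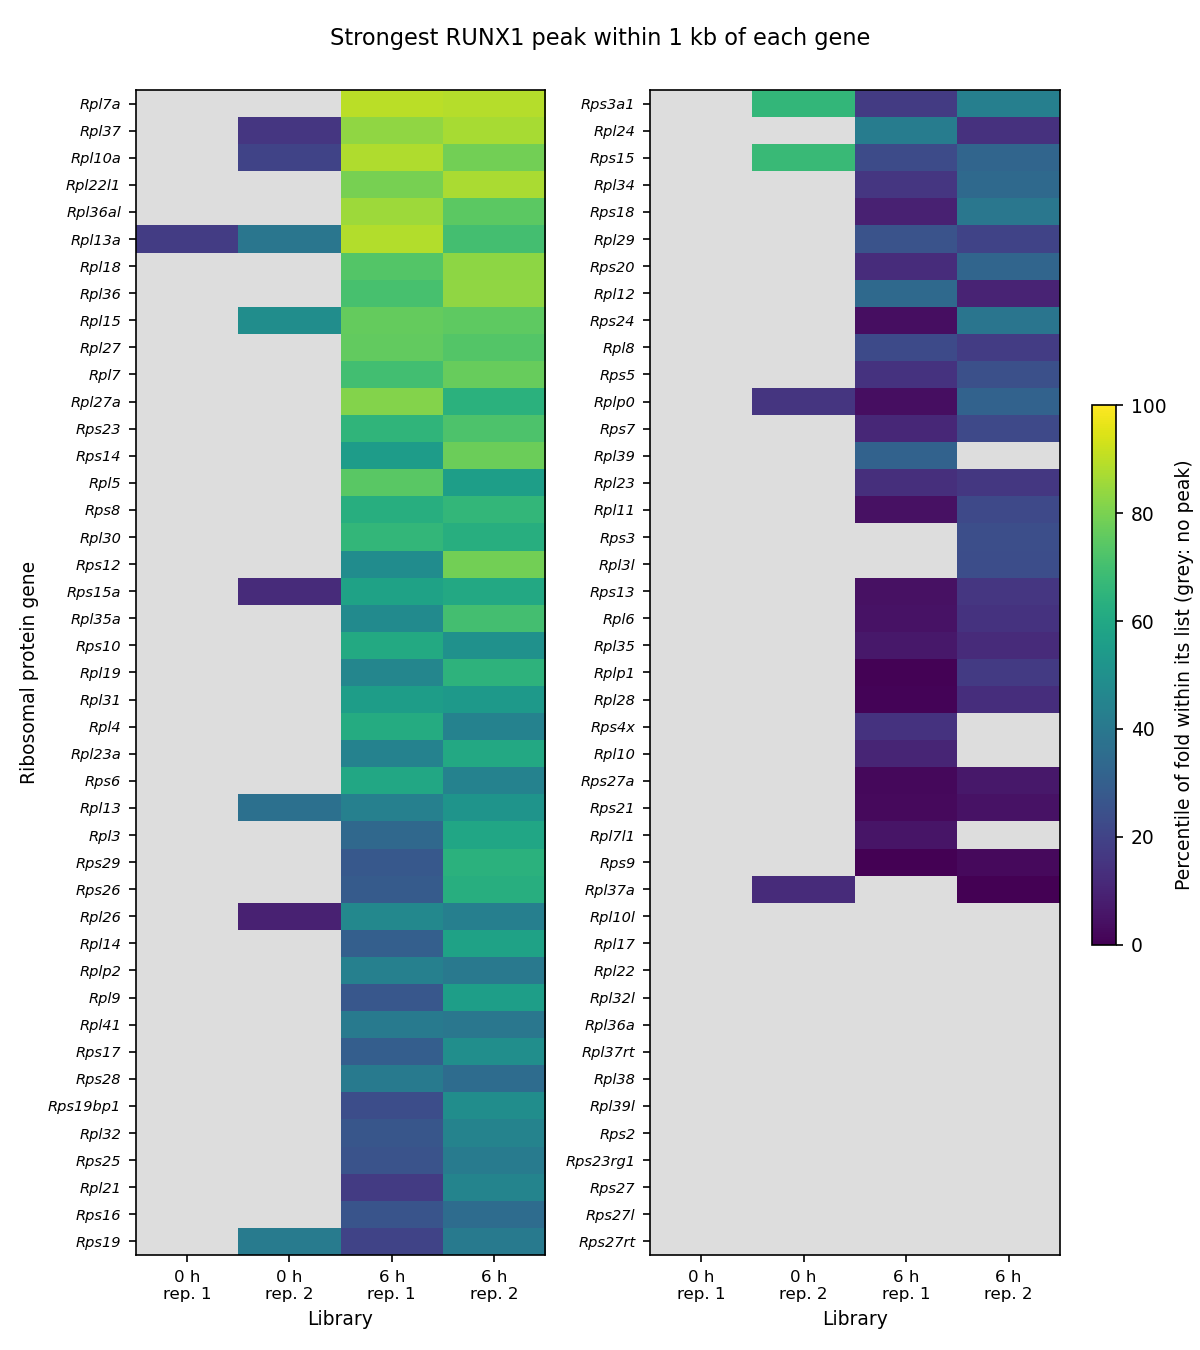
RUNX1 peak rank of 86 ribosomal protein genes (rows) in each of the 4 libraries (columns), as the percentile of the strongest peak's fold within its own list, with genes without a peak in grey. Most cells of the 6 h columns are coloured, while 0 h replicate 1 has a single coloured cell, that of Rpl13a.

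The peaks at ribosomal protein genes were frequent, but ranked below those of other bound genes at the median. Fold is the authors' enrichment of the ChIP pileup over local background at the summit. It is comparable within a list only, so each gene's strongest peak was given the percentile of its fold among all peaks of its list. The median percentile of bound members was 30.9 in 6 h replicate 1 and 44.5 in 6 h replicate 2, against 54.1 and 56.1 for the other bound genes. Bound members with a CpG-dense promoter had 37.6 and 44.3, against 56.5 and 58.8 for other bound CpG-dense genes. Low medians at 6 h were also seen in other housekeeping genes: 25.5 and 40.8 for proteasome genes, 41.1 and 38.9 for oxidative phosphorylation genes, 46.1 and 51.3 for mitochondrial ribosomal protein genes, and 39.8 and 36.9 for a list of 40 ribosome assembly genes. A list of 15 other TOP mRNA genes went the other way, at 74.4 and 64.5. At 0 h the medians were 17.9 in replicate 1 (1 gene) and 22.8 in replicate 2 (13 genes), against 39.9 and 47.4. Members were lower in 4 of 4 libraries, by 11.7 to 24.5 percentile points. By peaks within 1 kb of the gene ends, no member reached the top 10% of either 6 h list, while 10.3% and 9.7% of the other bound genes did. Below the 50th percentile lay 49 (68.1%) and 40 (56.3%) of the bound members, against 45.8% and 43.9% of the other bound genes.

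Both parts of the fold were recovered as reads. The median pileup at the member summits was 55.5 and 58 reads at 6 h, close to the 53 and 55 reads of other bound genes. The median local background was 6.43 and 4.47 reads, above the 4.82 and 3.73 reads of other bound genes. The pileup was 1.05 times that of other genes in both replicates, and the background 1.33 and 1.20 times. The subunits differed in pileup, with medians of 65.5 and 64 reads at large-subunit genes and of 48 and 50 reads at small-subunit genes, the latter below other bound genes. Over the whole family the lower rank at 6 h went with a higher local background, and the part of the background in the rank was not tested. Oxidative phosphorylation genes showed like values, with 54 and 54 reads of pileup over 6.43 and 4.72 reads of background. Proteasome genes had lower pileups, of 44 and 48 reads over 5.14 and 4.10 reads. At 0 h the median pileup was 24 reads (1 gene) and 28 reads, against 35 and 31, and the median background 3.38 and 3.73 reads, against 3.77 and 3.46. At 0 h the pileup at members was below that of other bound genes. Median peak width at 6 h was 609 and 666 bp for members, above the 559 and 619 bp of other bound genes. Among bound genes with a CpG-dense promoter it was 619 and 652 bp for members and 588 and 659.5 bp for others. There the order differed between replicates.

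**Figure D3:**
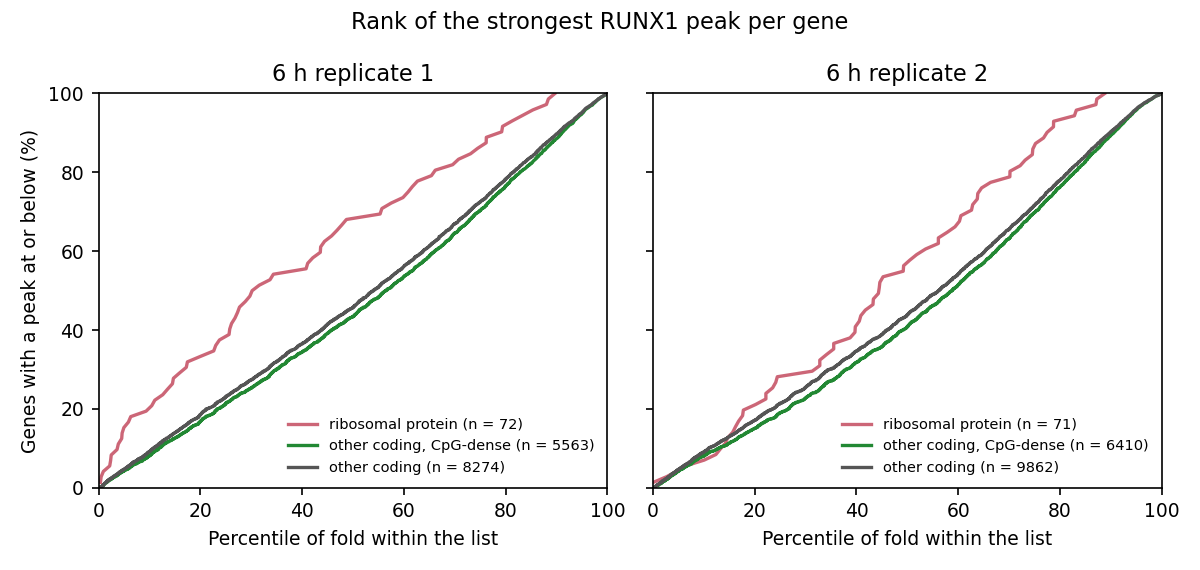
Cumulative percentage of bound genes (vertical axis) whose strongest 6 h peak lies at or below each within-list percentile of fold (horizontal axis), by replicate, for ribosomal protein genes, other protein-coding genes and those with a CpG-dense promoter. The median of ribosomal protein genes is 30.9 and 44.5, below 54.1 and 56.1 for the other genes. By peaks within 1 kb of the gene ends, none of the ribosomal protein genes lies above 90.

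**Figure D4:**
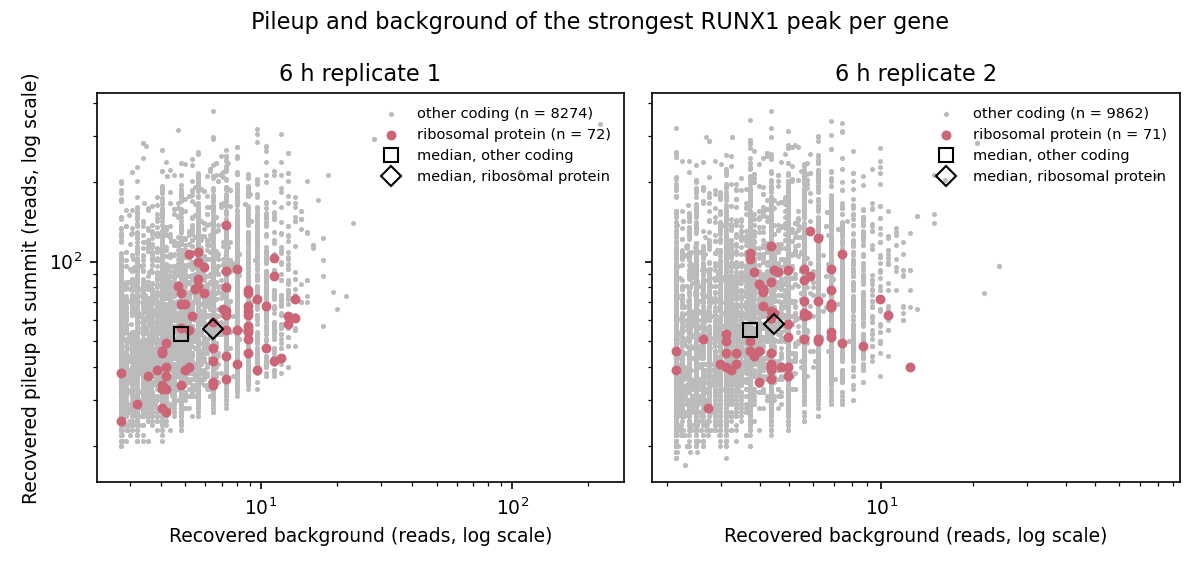
Recovered pileup (vertical axis) and local background (horizontal axis), in reads on log scales, at the strongest peak of each bound gene in the 6 h replicates, with medians as open symbols, for ribosomal protein genes and other protein-coding genes. Median pileups are close (55.5 and 58 against 53 and 55 reads), while the median background of ribosomal protein genes is higher (6.43 and 4.47 against 4.82 and 3.73 reads).

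The replicates ranked the members alike, with a Spearman correlation of 0.851 between the 6 h percentiles of the 68 genes bound in both (0.813 over other genes). The points share their promoters, the pooled input and the local background, so this is a description only. Large-subunit genes had higher medians (43.6 and 53.6) than small-subunit genes (23.4 and 40.3) in both 6 h replicates. In 0 h replicate 2 the order was the opposite, at 18.02 (8 genes) and 41.5 (5 genes). At 6 h the 10 members with the highest mean percentile, by peaks within 1 kb of the gene ends, were all large-subunit genes. This difference between subunits was seen in the data and was not tested.

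Rpl7a, a core large-subunit protein gene (chr2:26910685-26913312), ranked highest by peaks within 1 kb of the gene ends. Its fold was 17.6 in 6 h replicate 1 and 23.1 in replicate 2, with 107 and 108 reads over backgrounds of 5.14 and 3.73, and it had no peak at 0 h. Both summits lay just before the outer annotated start of the gene, at -15 and -98. The start of its promoter entry is 122 bp from that gene end. Rpl37 (chr15:5116613-5119140), whose upstream sequence with RUNX and ETS letters is printed above, had folds of 14.5 and 21.7 at 6 h and of 5.65 in 0 h replicate 2. Rpl10a (chr17:28328471-28331033), the protein of the mobile stalk at the tRNA exit site, had 16.6 and 17.2 at 6 h and 5.92 in 0 h replicate 2. These 3 genes ranked at percentiles 78.7 to 89.7 of their 6 h lists, well above the family's median.

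Rpl13a (chr7:45125563-45128745), which encodes a large-subunit protein also known for a role in translational silencing during inflammation, was the only member bound by the gene-end rule in all 4 libraries, and hence the only 1 so bound in both 0 h libraries (1.49% of all protein-coding genes). Before hCG its fold was 5.71 and 6.80, and 6 h after it 16.8 and 14.4, with percentiles of 17.9 and 39.2, then 88.4 and 70.2. The pileup was 24 and 28 reads before hCG, then 137 and 94 reads, over backgrounds of 3.38 and 3.26, then 7.23 and 5.59. Pileups at other bound genes also differed between the time points, with medians of 35 and 31 reads before hCG and 53 and 55 reads after it. Summits lay at -236, -245 and -244 in 3 libraries and at -518 in 0 h replicate 1.

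The upper 10 also included Rpl22l1, Rpl36al, Rpl18, Rpl36 and Rpl15. Rpl22l1, the paralog of Rpl22, had folds of 13.2 and 21.8 at 6 h. Rpl36al, the autosomal paralog of the X-linked Rpl36a, had 15.2 and 15.8. Neither paralog had a peak at 0 h. At their gene ends, Rpl18, Rpl36 and Rpl15 had folds of 11.3 to 12.4 in replicate 1 and of 15.9 to 19.2 in replicate 2. Of these only Rpl15 was also bound at its gene end at 0 h, at 7.19 in replicate 2. Rpl18 had 0 h peaks at a listed start within the gene, given below.

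The 5 members of lowest mean percentile among those bound in both 6 h libraries were Rplp1, an acidic protein of the ribosomal stalk, Rpl28, Rps27a, which is made as a fusion with ubiquitin, Rps21 and Rps9. Their folds were 3.37 to 4.26 in replicate 1 and 5.06 to 7.17 in replicate 2. In replicate 1 they had pileups of 39 to 58 reads over backgrounds of 9.64 to 12.9 reads. Rps9 had 43 reads over 12.1 in replicate 1 and 48 over 8.69 in replicate 2. In replicate 1 all 5 had backgrounds above the members' median, and 4 of them had pileups below the 53 reads of other bound genes.

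Some members with known links to disease or signalling were chosen after their values were seen. Rpl5 and Rpl11 bind 5S rRNA together and restrain MDM2, the inhibitor of p53. Rpl5 had folds of 12.02 and 11.6 at 6 h and Rpl11 4.65 and 7.67, so the partners differed in rank (percentiles 74.5 and 56.1 against 4.53 and 22.2). Rps6, the substrate of the S6 kinases, had 9.65 and 9.95. Rps19 and Rps14 are known for inherited and acquired anemias of ribosome shortage. Rps19 had 6.20 and 9.56 at 6 h, and Rps14 9.12 and 16.7. Of these 5 genes only Rps19 had a peak at 0 h.

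The 13 members bound in 0 h replicate 2 included Rpl37a, Rps3a1, Rplp0, Rps19, Rpl13a, Rps15a, Rpl13, Rps15, Rpl26, Rpl15, Rpl37 and Rpl10a. At least 1 of the 0 h libraries bound 8.12% of all protein-coding genes. Their folds ran from 5.21 (Rpl26) to 8.29 (Rps15), and their pileups from 25 to 36 reads. Of the 13 peaks, 12 overlapped a peak in both 6 h lists by at least 1 bp, and the one gene not bound in both 6 h libraries was Rpl37a. Of all protein-coding genes bound at 0 h, 97.7% were bound in both 6 h libraries, so the members' 12 of 13 is near the background. At 6 h the 12 genes had median percentiles of 45.2 and 47.6, against 31.9 and 44.9 for the 56 genes with no gene-end peak at 0 h. Rps15 and Rps3a1 led at 0 h with 8.29 and 8.21. At 6 h they ranked at percentiles 23.0 and 17.2 in replicate 1 and at 32.8 and 43.3 in replicate 2, below the members' medians in both. Rplp0, the base of the ribosomal stalk, had its summit 13 bp after the start at 0 h and 63 bp after it in 6 h replicate 1, but in 6 h replicate 2 the summit of its strongest peak lay 449 bp from the far end of the gene.

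Summits sat close to the starts. The median distance from the strongest summit to the nearer gene end was 120.5 and 119 bp at 6 h, against 160 and 153 bp for the other bound genes. Within 250 bp of an end lay 58 (80.6%) and 58 (81.7%) of the bound members, against 64.1% and 65.7% of other bound genes. Where the strand was known, 51 of 53 (96.2%) and 48 of 52 (92.3%) were nearer to the start than to the other end, against 94.9% and 94.4%. Among those nearer to the start, the median position was 55 and 33 bp after it, against 66 and 63 bp. Members were thus nearer to a gene end than all other bound genes, with like shares at the start. The housekeeping families were about as near, with median distances of 117.5 and 95 bp for oxidative phosphorylation genes, 129.5 and 102 bp for mitochondrial ribosomal protein genes, and 130.5 and 108 bp for proteasome genes. Member genes are short, with a median length of 3179 bp against 17258.5 bp. The replicates' summits lay a median of 57.5 bp apart, with 48 of 68 (70.6%) within 100 bp, against 42 bp and 75.3% over other genes. The farthest summit inside the 1 kb limit at 6 h was at 915 bp (Rpl7l1) in replicate 1 and 761 bp (Rpl29) in replicate 2, and the nearest outside was that of Rpl38, at 1204 and 1229 bp.

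**Figure D5:**
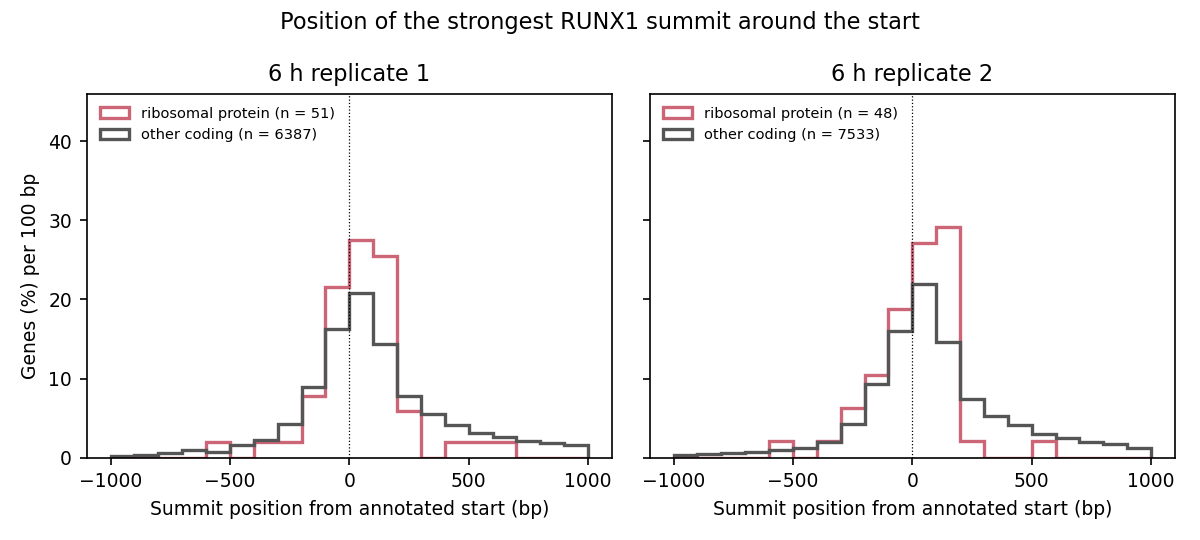
Position of the strongest 6 h summit relative to the annotated start (horizontal axis, bp), as the percentage of genes per 100 bp, for ribosomal protein genes with a known strand and other protein-coding genes whose summit lay within 1 kb of the start. The summits of ribosomal protein genes gather around the start. Among bound members whose summit is nearer to the start than to the other end, the medians are 55 and 33 bp after it.

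The 13 members bound in no library (53.7% of all protein-coding genes were bound in none) were of several kinds. The paralogs Rpl10l and Rpl39l, known for expression in testis, lay 73427 and 18027 bp from the nearest summit in 6 h replicate 1. Rpl32l, Rpl37rt, Rps23rg1 and Rps27rt, whose symbols mark copies of other members (noted after their values were seen), lay 2918 bp or more from a summit in both 6 h lists. Rps27, a small-subunit gene, lay 18077 and 18069 bp away, and the X-linked Rpl36a 98589 and 129921 bp. Without the paralogs and Rps19bp1, 65 of 80 members (81.2%) were bound in both 6 h libraries, against 37.3% of all protein-coding genes.

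Rps2, Rpl22, Rpl38, Rps27l and Rpl17 were the exceptions. They had summits 1204 to 1892 bp from the annotated ends at 6 h, and in the first 4 these lay near a transcription start that RefSeq lists inside the gene. At Rps2, of the small subunit, the summits were 50 and 22 bp from a listed start, with folds of 26.0 and 27.7, which rank at percentiles 96.8 and 92.6, above every member bound at its gene ends. At Rpl22 they were 197 and 178 bp away, with folds of 14.8 and 26.1. Rpl38, known for its part in translation of Hox mRNAs, had folds of 8.24 and 9.31 at 442 and 467 bp from its listed start. At Rps27l, a p53 target, the summits lay 38 and 57 bp away with folds of 3.76 and 9.71. Rpl17 had no promoter entry, and its nearest summits were 1661 and 1686 bp from a gene end. Rpl18, already bound at its gene end, had a stronger peak at a listed start within the gene, with folds of 4.82 and 6.59 before hCG, then 24.9 and 27.6.

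With listed starts counted for all genes, an alternative chosen after the data were seen, members bound numbered 2, 17, 76 and 75, against 1.73%, 8.85%, 41.4% and 49.1% of all protein-coding genes. In both 6 h libraries 72 (81.8%) were bound, against 40.6%. The members' median percentiles were then 32.6 and 44.5, against 54.9 and 56.7 for other genes, and 2 (2.63%) and 3 (4%) of the bound members reached the top 10% of the 6 h lists, against 10.5% and 9.94% of other bound genes. The low rank of the family as a whole was thus kept.

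The 7 members bound in 1 of the 6 h libraries included 3 of the 4 X-linked members. Rpl39, Rpl10 and Rps4x had folds of 7.12, 5.41 and 5.78 in replicate 1, on 27 to 29 reads, and no peak in replicate 2. Other X-linked genes were bound at 14.4% and 22.7% in the same libraries, so their share went the opposite way. Of the 84 autosomal members, 69 and 71 were bound, against 39.5% and 46.9% of other autosomal genes. Rpl7l1, which acts in the nucleolar assembly of the large subunit, was bound in replicate 1 only, at a fold of 4.85 and 915 bp from an end. Rpl37a, Rps3 and Rpl3l were bound in replicate 2 only, at folds of 3.06, 7.86 and 7.80. The summit of Rpl3l, the muscle paralog of Rpl3, lay 418 bp from its far end and was shared with Msrb1. Rps19bp1 was bound in both, at 6.57 and 10.6.

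A summit within 1 kb of 2 genes cannot be given to either. Among the 68 members bound in both 6 h libraries, 17 (25%) had a 6 h summit that was also within 1 kb of an end of another protein-coding gene, against 29.0% of other genes bound in both. The 4 of highest rank were Rpl7a with Med22, Rpl37 with Card6, Rpl36al with Mgat2, and Rpl36 with Micos13. Sharing was thus no more common than among other bound genes.

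Introns of ribosomal protein genes often carry small nucleolar RNAs, which guide the modification of rRNA. Here 29 members (33.0%) held 56 annotated snoRNA genes, against 1.57% of other protein-coding genes that held any. Bound in both 6 h libraries were 24 of the 29 hosts (82.8%) and 44 of the 59 other members (74.6%). Of the 343 other host genes, 188 (54.8%) were, and of all protein-coding genes 37.3%. A difference between hosts and non-hosts within the family was not tested.

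Processed pseudogenes copy the mRNA and leave the promoter behind. Of 318 pseudogenes named after these members, 0, 0, 1 (0.314%) and 3 (0.943%) had a summit within 1 kb in the 4 libraries. Other pseudogenes (10304) had 0.0582%, 0.165%, 1.34% and 2.19%. With so few summits at the copies, no difference from other pseudogenes was shown. A read that maps to both a gene and its copies may have been dropped or misplaced, and how such reads were treated is not given in the sources used here.

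Motif letters were counted in the 300-base promoter entries on both strands, with overlapping matches counted once per promoter. The RUNX letters were in 12 of 68 member promoters (17.6%), against 21.6% of 17492 protein-coding promoters and 22.5% of the other genes bound in both 6 h libraries. Among members they were in 9 of 49 promoters (18.4%) bound in both 6 h libraries and in 3 of 19 (15.8%) of the rest. Most promoter entries in each of these sets lacked the letters. The entries end 50 bases after a start, and many member summits lay outside them. The shares thus describe the entries and not all DNA under the peaks. The ETS letters were in 32 (47.1%) of the member promoters, against 19.1% of all and 30.7% of the other genes bound in both. Within the family they were in 22 of 49 (44.9%) bound and 10 of 19 (52.6%) remaining promoters. YY1 letters were in 6 (8.82%), against 3.21% of all, and among promoters bound in both 6 h libraries in 6.12% of members and 5.11% of other genes. The SP/KLF letters GGGCGG were in 39 (57.4%), against 46.3% of all and 71.1% of the other genes bound in both. The AP-1 letters TGACTCA were in 1 (1.47%, against 4.56%) and TATAAA in 8 (11.8%, against 13.3%). A run of at least 8 pyrimidines on the sense strand within 50 bases of the start was in 52 (76.5%), against 35.2% of all and 29.6% of the other genes bound in both. CpG-dense promoters made up 82.4% of the 68 member promoters and 87.8% of the 49 bound in both 6 h libraries, against 83.5% of the other genes bound in both. Of the 49 member promoters bound in both 6 h libraries, 81.6% held the pyrimidine run, 44.9% the ETS letters, 61.2% the SP/KLF letters and 18.4% the RUNX letters, against 29.6%, 30.7%, 71.1% and 22.5% of the other bound promoters. These shares are descriptions, and their differences were not tested.

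Genes that work with this family were described from fixed lists of symbols, by counts only. Their counts stand against 1.58%, 8.04%, 38.1% and 45.4% of all protein-coding genes in the 4 libraries, and against 66.1% and 76.2% of CpG-dense genes at 6 h. Among ribosomal protein genes outside the symbol rule, Rpsa, Rack1 and Fau were bound in both 6 h libraries and in neither 0 h library. Rpsa had folds of 7.90 and 11.2 at 6 h and Rack1 7.53 and 5.92. Fau had 15.7 and 14.9 at 6 h. Of 15 other genes with TOP mRNAs, 2, 7, 13 and 15 were bound in the 4 libraries. Eef1d, a subunit of the elongation factor eEF1B, was bound in all 4, with folds of 6.75 and 12.3 before hCG, then 21.4 and 29.6. Eef1a1, which brings aminoacyl-tRNA to the ribosome, had 16.6 and 15.3 at 6 h and none at 0 h. Eif3e and Eif3f were bound in 6 h replicate 2 only.

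Of 40 genes of ribosome assembly, 1, 8, 32 and 37 were bound, and 31 (77.5%) in both 6 h libraries, against 37.3% of all protein-coding genes and 77.3% of members. In 6 h replicate 2 they stood at 92.5%, against 80.7% of members. Gar1, of the pseudouridylation complex, reached folds of 31.9 and 34.6 at 6 h and 10.8 in 0 h replicate 2. Fbl, the methyltransferase fibrillarin, had 23.0 and 21.7 at 6 h. Gnl3, nucleostemin, was the one gene of this list bound in all 4 libraries, with 8.42 and 10.1 before hCG, then 19.4 and 18.4. Ubtf and Nob1 had no peak in any. Of 12 regulators, 0, 1, 9 and 10 were bound, against 1.58%, 8.04%, 38.1% and 45.4% of all protein-coding genes. Yy1 had 22.7 and 24.9 at 6 h and 9.86 in 0 h replicate 2, and Gabpa had 8.93 and 13.8 at 6 h. Myc had 7.71 and 12.8 and Mtor 8.46 and 13.2, both at 6 h only. Larp1, which holds TOP mRNAs when mTOR is off, and Rps6kb1 had no peak within 1 kb in any library.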

How the data were processed

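RUNX1 ChIP-seq peak lists of 4 libraries (2 at 0 h and 2 at 6 h) were analysed. Reads were aligned with Bowtie2 2.2.5 to mm10 and peaks were called with MACS2, per the submitters' processing notes, 1 list per library. The settings are not given in the sources used here. The 2 pooled inputs enter only through the deposited calls. The deposited lists give for each peak a fold (a ratio of ChIP pileup to local background with a pseudocount of 1), a p-value and a q-value (both as −log10), a score that was not used, and the interval and summit. These are the authors' values, used within a list only. Sequencing depth is unknown. Whole-number pileups and backgrounds were recovered from each pair of fold and −log10 p, which worked for 100% of peaks at a misfit of at most 0.005. The pileups are reads at 1 position, and how duplicate reads were treated is not given in the sources used here.

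Genes are those of RefSeq on GRCm38.p6, with ends as given there and strand and listed starts from its promoter entries. The gene ends, the distance of 1 kb, the named genes and the gene lists were chosen with earlier results of these data known. Named members were the 10 highest and 5 lowest by mean 6 h percentile among those bound in both 6 h libraries, those bound in both 0 h libraries, those bound in none, those bound at 0 h only, 4 sharing a summit with another gene, and the paralogs; others were named for their known roles after their values were seen. Libraries were compared by exact two-sided permutation tests. No test was made over genes, since genes are not replicates. The alternatives were a −log10 q limit, equal list lengths, distances of 500 bp and 5 kb, interval overlap, the nearest gene only, starts only, no paralogs, CpG-dense comparison genes, listed starts, each library left out and a replicate block. The counting was tested on simulated data. Python 3.11.15, numpy 2.4.6, pandas 2.3.3, scipy 1.17.1 and matplotlib 3.10.9 were used. A few genes are not reported here by name; they stay in the counts.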

Additional observations from a re-analysis of the deposited data

How the results depend on the processing

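Of 84 values under alternatives that left out no library, 59 kept their direction and, where untested, moved by less than 1 SD between replicates (counts: within 1.5 times), 20 moved further and 5 reversed. Some of the 59 still changed in size, since the SDs are wide. The log2 ratio difference fell to 0.05 within 5 kb, 0.17 with listed starts and 0.36 with starts only. Within 5 kb the difference from other genes at 0 h was 6.35 and the 6 h percentile difference -10.4. The share of members bound rose from 0 h to 6 h under each alternative except equal list lengths, where the difference was -0.568 percentage points. With equal list lengths members minus other genes was -1.25 at 0 h and -1.74 at 6 h, and 0 members were bound in both libraries of either time point. With −log10 q of at least 20 the difference from other genes was -1.46 at 0 h and 31.4 at 6 h, and 0 members were bound in both 0 h libraries. Against CpG-dense genes it was -1.06 and 10.1. The cause of these changes was not tested, beyond the fewer peaks that the first 2 alternatives leave.

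Members bound in both 0 h libraries numbered 0 within 500 bp, 3 within 5 kb and 2 with listed starts. The fold percentile difference at 0 h was -20.8 within 5 kb, -19.4 with starts only and -25.4 with listed starts. The median 6 h summit distance was 109 bp within 500 bp, 180 within 5 kb, 124.5 with interval overlap, 104 with the nearest gene only, 102.25 with starts only, 115 without paralogs and 110 with listed starts. The share at the start was 80.9% within 5 kb and 98.9% with the nearest gene only. The log2 ratio to other genes and the 0 h percentile had no value where no member was bound in a 0 h library.

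With 1 library left out, the 6 h minus 0 h difference ran from 66.5 to 80.1 points and the log2 ratio difference from 0.09 to 1.45. Members minus other genes ran from -0.441 (without 0 h replicate 2) to 6.76 at 0 h and from 35.5 to 43.9 at 6 h. Members bound in every library kept numbered 1 to 13 at 0 h (13 without replicate 1) and 71 to 72 at 6 h. The percentile difference ran from -24.5 to -22.0 at 0 h and from -23.2 to -11.7 at 6 h (-11.7 without replicate 1), the distance from 119 to 120.5 bp and the share at the start from 92.3% to 96.2%. Replicate numbers carry no stated pairing. With a replicate block the differences of 73.3 points and 0.77 had exact permutation p = 0.5, the smallest possible, and p = 1. Neither form could pass 0.05 with 2 libraries per group, so this says nothing about stability.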
